A study of Homo sapiens with 18 samples.

Results

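Ribosome footprints pulled down through a FLAG tag on the ribosomal protein RPL22 were compared between beta-like cells and definitive endoderm, both grown from the MEL1 human embryonic stem cell line. The comparison takes every library that the labels mark as immunoprecipitated footprints of GFP+ stem-cell-derived beta cells (GFP+ sBC) or of definitive endoderm (DE), which gives 4 of the 18 libraries of the series, 2 in each group. GFP+ sBC carry the genotype GFP+ with an RPL22-FLAG lentivirus, and the line holds a GFP reporter in 1 allele of the insulin gene, so the sort for GFP kept cells in which the insulin promoter was active. DE cells carry the genotype RPL22-FLAG. Both groups were lysed without cycloheximide, digested with RNase I and immunoprecipitated for FLAG, and all samples share a source field that reads as undifferentiated stem cells of this line. The labels give neither the promoter that drives the tag nor the number of clones, and how the tag reached the cells cannot be told apart from the stage. Nor do they say whether both libraries of a stage were made from different cultures, and the p-values measure library-to-library spread that may be technical. RNA-seq of the same stages, 2 libraries each, was used beside the footprints. The GFP+ sBC of the RNA libraries are labelled GFP+ alone, with no lentivirus, and the DE of the RNA libraries carry RPL22-FLAG.

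A ribosome shields a short stretch of the mRNA it is reading from RNase, and sequencing these stretches counts the ribosomes on each gene's mRNA. A tag on a ribosomal protein lets the ribosomes of the tagged cells be pulled out of a mixed lysate. Definitive endoderm is the germ layer from which gut, liver and pancreas form, is induced by Nodal-type signals and is marked by SOX17, EOMES and GATA factors. Beta cells translate large amounts of preproinsulin on the endoplasmic reticulum, cut it into insulin in dense-core granules and release the granules when glucose closes their potassium channels.

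The GFP+ sBC libraries held 8.73 M and 7.59 M counts, and the DE libraries held 6.61 M and 19.86 M. Nuclear genes that code for protein took 54.6% and 62.8% of a GFP+ sBC library, against 84.1% and 88.5% of a DE library. In GFP+ sBC a feature without a symbol, ENSG00000270103, took 19.8% and 17.2% of the counts and was at 0 in DE. Its call was lost when any 1 of the 4 libraries was left out (adjusted p between 0.0638 and 0.12, edgeR). The small nuclear RNA RNU11 took 8.83% and 7.46% in GFP+ sBC and 0.601% and 0.535% in DE, and mitochondrial ribosomal RNA took 4.07% and 3.98% in GFP+ sBC and 0.228% and 0.282% in DE. Because such RNAs take a share of the counts that differs between groups, levels below are CPM, counts scaled to a common library total with TMM factors, which were 0.797 and 0.972 for GFP+ sBC and 1.29 for each DE library. The part of these RNAs in any result was not tested, apart from the fits without them. Replicates followed each other closely, with a Spearman correlation over 16018 genes of 0.945 in GFP+ sBC and 0.952 in DE. Levels are not set side by side between genes, since footprint counts grow with coding length.

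**Figure D1:**
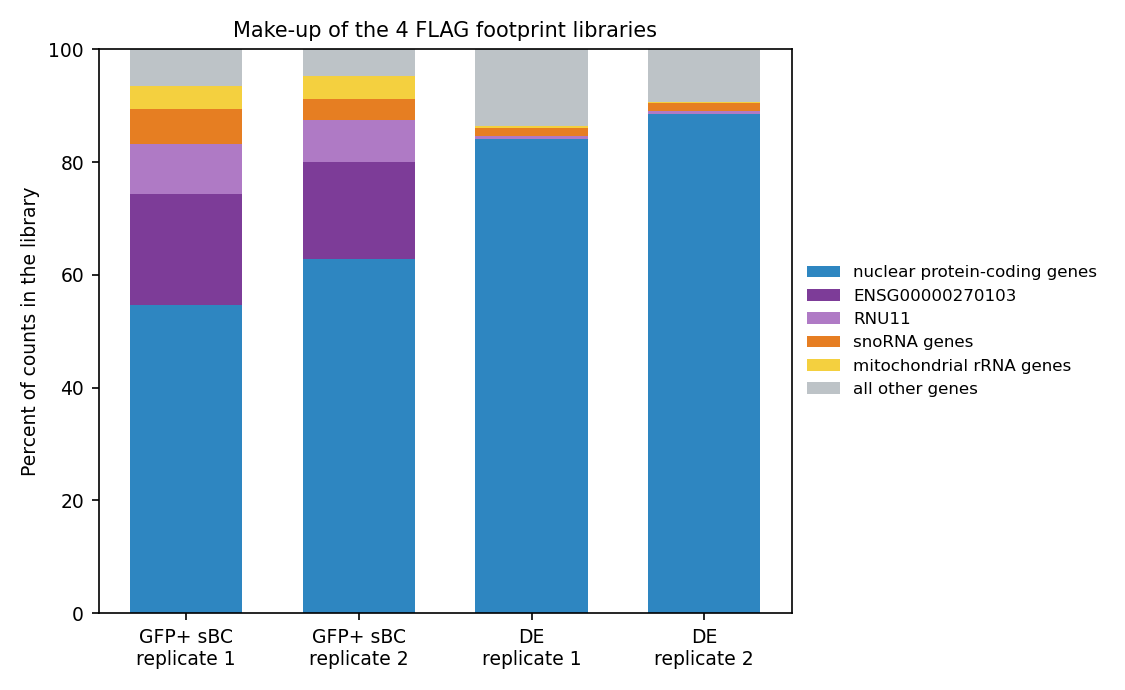
Share of each FLAG footprint library's counts (y axis, percent) by class of gene, as stacked bars, with the 2 GFP+ sBC libraries left of the 2 DE libraries. Protein-coding nuclear genes fill 54.6% and 62.8% of the GFP+ sBC bars and 84.1% and 88.5% of the DE bars.

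Of 57808 genes in the table, 16018 had enough counts to be tested, and 8418 (52.6%) differed between GFP+ sBC and DE at an adjusted p under 0.05 in edgeR's quasi-likelihood test with Benjamini-Hochberg adjustment. Footprints were higher in GFP+ sBC for 4451 genes (27.8%) and lower for 3967 (24.8%), and among 13555 protein-coding genes the shares were 29.8% and 25.7%. In 76.9% of the genes tested the libraries of the 2 groups did not overlap. The higher genes had a median log2 fold change of 3.44 and the lower ones a median size of 1.86. Of the higher genes, 381 had no count in DE, and 291 of the lower genes had none in GFP+ sBC. Among the 4233 higher genes that were also tested in RNA, 71.1% were higher in RNA and 3.66% lower; among 3756 lower genes, 89.5% were lower in RNA and 0.559% higher. Of 23321 genes tested in RNA, 60.7% were called, 29.9% higher and 30.9% lower. Another fit on both kinds of library tested whether the footprint difference exceeded the RNA difference; this gap passed in 10.3% of 20944 genes, above 0 in 7.25% and below 0 in 3.08%. It has a scaling of its own over all 8 libraries, so it can depart from a plain subtraction of both log2 values. Every list count below is to be read beside these background shares. A gene seen in 1 stage alone enters the test through that stage and almost has to differ, so the counts describe the lists, and members with too few counts are named. In bulk libraries fewer cells of a type and less RNA per cell cannot be told apart.

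The genes of the islet hormones had abundant footprints in GFP+ sBC and next to none in DE. INS, which encodes insulin (chromosome 11, 2159779 to 2161209, GRCh38.p14), had 3741 and 2886 CPM in the 2 GFP+ sBC libraries and no count in either DE library. Against a floor of 3 counts over the 2 DE libraries, this is at least 37589-fold higher (adjusted p = 2.57e-05, edgeR). GCG, which encodes glucagon, the hormone of alpha cells (chromosome 2, 162142882 to 162152247), had 53094 and 28742 CPM in GFP+ sBC and none in DE, at least 461821-fold higher. These cells, sorted on the insulin promoter, yielded footprints of another cell type's hormone in both libraries, with a spread of 17219.6 CPM (SD, n = 2) around a mean of 40918. SST, the somatostatin gene of delta cells, had 1629.6 and 1323 CPM in GFP+ sBC and none in DE (at least 16761-fold), and the gastrin gene GAST had 233 and 184 CPM and none (at least 2371-fold). IAPP, the amyloid peptide that beta cells release with insulin, reached 4.04 and 2.04 CPM in GFP+ sBC and was at 0 in DE (at least 34.3-fold). GHRL, which encodes ghrelin, had 6.92 and 3.67 CPM in GFP+ sBC and none in DE. All 11 hormone genes tested were higher, with a median log2 fold change of 8.98, or 6.35 with the genes at 0 in DE set to their bound, against -0.03 over all genes. ADCYAP1 had too few counts to be tested. In RNA all 12 were higher, and INS had 4397 and 4828 CPM in GFP+ sBC and 0 in both DE libraries.

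The window before the INS start is printed because 2 kinds of element that beta cell factors are known to bind lie in it. RefSeq's window on GRCh38.p14 was searched on both strands in the 250 bases before the start, and the capitals mark the A boxes (CTAATG, bound by PDX1) and an E box (GCCATCTG, bound by NEUROD1 with a partner).
INS chr11:2161210-2161459, minus strand: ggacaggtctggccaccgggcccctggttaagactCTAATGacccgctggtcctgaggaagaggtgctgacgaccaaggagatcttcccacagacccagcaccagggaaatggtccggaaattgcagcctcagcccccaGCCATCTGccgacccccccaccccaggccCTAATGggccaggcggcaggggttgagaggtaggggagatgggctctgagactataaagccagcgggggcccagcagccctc
Among 11 hormone genes with a window, the A box letters occurred in INS and SST (18.2%, against 6.83% of 27305 genes with a window). The E box letters occurred in INS alone (9.09%, against 1.17%). A match is a run of letters and says nothing of binding in these cells.

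**Figure D2:**
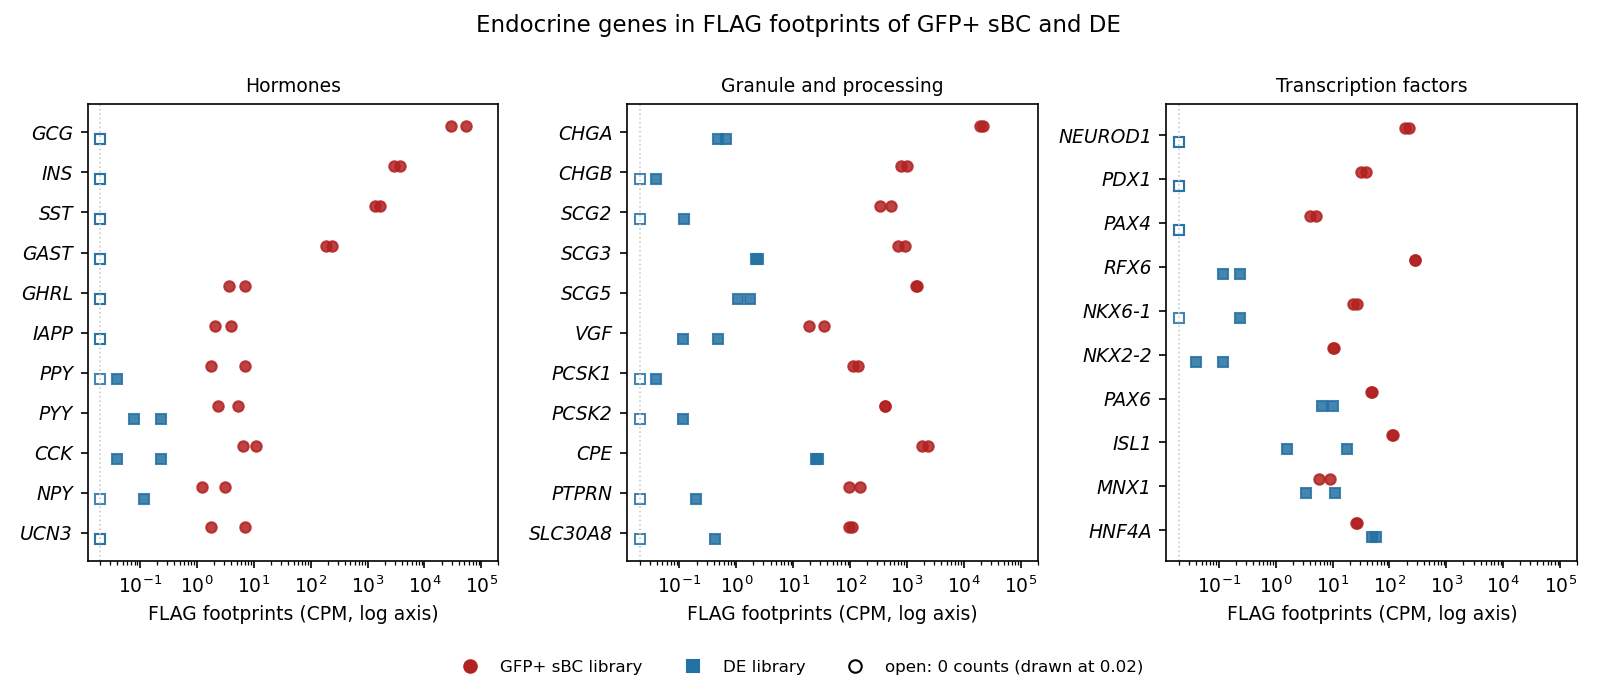
Footprint level of endocrine genes in each FLAG library (x axis, CPM, log scale), with GFP+ sBC points above DE points, in panels for hormones, granule and processing genes, and transcription factors. Open points mark libraries with 0 counts; INS lies at 3741 and 2886 CPM in GFP+ sBC and has no count in DE.

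Most transcription factors of the beta cell list were higher in GFP+ sBC, and a few had almost no counts there. PDX1, the factor that binds the insulin promoter and directs pancreas formation, had 31.0 and 39.1 CPM in GFP+ sBC and none in DE (at least 401-fold higher). NEUROD1, a basic helix-loop-helix activator of INS, had 216 and 191 CPM in GFP+ sBC and none in DE (at least 2311-fold). NKX6-1, which keeps beta cells from taking other islet fates, had 23.1 and 26.5 CPM in GFP+ sBC against 0.236 and 0 in DE, a ratio of 424 with a 95% counting interval of 117 to 3520. The GFP+ sBC and DE libraries did not overlap for any of these factors. NKX2-2 had 10.5 and 10.3 CPM in GFP+ sBC against 0.118 and 0.0390 in DE (ratio 178, interval 48.4 to 1480). RFX6, an endocrine winged-helix factor, had 286 and 277 CPM in GFP+ sBC against 0.118 and 0.234 in DE, a log2 fold change of 10.39 ± 0.38 (SE; adjusted p = 1.89e-05, edgeR). MAFA, the factor of adult beta cells, had 2 and 0 counts in GFP+ sBC and 1 and 2 in DE, too few to be tested, and SIX2 and SCRT1 had at most 5 counts in either GFP+ sBC library and also went untested. Of 20 factors tested 14 were higher and 2 lower, with a median of 4.30, or 6.03 in RNA. The lower ones were HNF4A, with 25.5 and 27.4 CPM in GFP+ sBC against 57.0 and 48.5 in DE (-0.99 ± 0.22), and BHLHE22, at 0 in GFP+ sBC, whose call was lost without any 1 of 3 of the 4 libraries (adjusted p 0.113 to 0.188). ISL1 had 117 and 110.0 CPM in GFP+ sBC against 17.7 and 1.60 in DE and missed the threshold (adjusted p = 0.0532); without DE replicate 1 it had a log2 fold change of 6.08 and without DE replicate 2 one of 2.67, and each then passed.

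Most alpha cell genes were higher as well. TTR, the thyroxine carrier transthyretin made in liver and alpha cells (chromosome 18), had 10912 and 8832 CPM in GFP+ sBC against 0.707 and 0.156 in DE, a log2 fold change of 14.83 ± 0.83. TM4SF4 was at 44.1 and 64.4 CPM in GFP+ sBC and 0 in DE (at least 621-fold higher), and POU3F4 at 1.01 and 0.951 CPM in GFP+ sBC and 0 in DE (at least 11.2-fold). Of the 12 genes on the list 11 were higher (median 6.21, or 5.90 with bounds). HHEX, which endoderm also uses, was the 1 lower gene, with 3.03 and 2.85 CPM in GFP+ sBC against 46.9 and 38.0 in DE (-3.85 ± 0.40). The summed level of the list was 11339 and 9263 CPM in GFP+ sBC and 56.9 and 47.9 CPM in DE. TTR made up most of the GFP+ sBC sum.

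The granule proteins and the enzymes that cut prohormones showed the same contrast. CHGA, the granin that helps granules form (chromosome 14, 92922664 to 92935285), had 18929.6 and 21534 CPM in GFP+ sBC against 0.471 and 0.662 in DE, a log2 fold change of 15.03 ± 0.42 (adjusted p = 1.89e-05, edgeR). CHGB had 789 and 1011 CPM in GFP+ sBC against 0 and 0.0390 in DE, a single count (ratio 30800, interval 5540 to 1220000). Of the convertases, PCSK1 had 110.3 and 135 CPM in GFP+ sBC against 0 and 0.0390 in DE (ratio 4200, interval 753 to 166000) and PCSK2 had 409.9 and 408 CPM against 0 and 0.117 (ratio 4660, interval 1590 to 22600). In every one of these genes both GFP+ sBC libraries lay far above both DE libraries. CPE, the carboxypeptidase that trims the cut ends, had a sizeable level in DE too, with 1860.3 and 2385 CPM in GFP+ sBC against 25.6 and 27.8 in DE (6.31 ± 0.45). Its footprint difference exceeded its RNA difference of 3.83 by 1.96 on the log2 scale (adjusted p = 0.00558, edgeR interaction). SLC30A8, the granule zinc transporter, had 109 and 95.9 CPM in GFP+ sBC against 0 and 0.429 in DE, and its log2 fold change of 8.38 became 13.27 without DE replicate 2. Of 17 genes 16 were higher (median 8.78; 7.21 in RNA), and CLTRN, with 2.60 and 2.85 CPM in GFP+ sBC against 1.77 and 1.48 in DE, did not pass (adjusted p = 0.314). Summed, these genes took 25350.1 and 29109 CPM in GFP+ sBC and 33.8 and 38.6 CPM in DE. CHGA made up most of the GFP+ sBC sum.

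Release machinery, channels and receptors followed. Of 24 exocytosis genes 21 were higher and 0 lower (median 3.83). SNAP25, a SNARE protein of granule fusion, had 57.2 and 55.4 CPM in GFP+ sBC against 0.353 and 0.195 in DE (7.81 ± 0.38), while RAB3D, with 18.9 and 17.4 CPM in GFP+ sBC against 17.4 and 17.1 in DE, did not pass (0.07 ± 0.27). RIMS2, a scaffold of release sites, had 14.7 and 20.6 CPM in GFP+ sBC against 9.18 and 12.2 in DE (0.72 ± 0.29, adjusted p = 0.0682), although its RNA was higher by 2.24. That gap of -2.06 between footprints and RNA passed the interaction test (adjusted p = 0.00719, edgeR). ABCC8, the sulfonylurea receptor subunit of the beta cell potassium channel, had 279 and 378 CPM in GFP+ sBC and none in DE (at least 3759.6-fold higher), and KCNK16, a leak potassium channel of islets, had 81.5 and 98.4 CPM and none (at least 1027-fold). All 17 channel genes tested were higher (median 7.72, or 7.41 with bounds); 3 of the 20 on the list, KCNK3 and KCNMB2 among them, were not tested. Of 15 receptor and cyclase genes tested 14 were higher (median 5.46, or 5.03 with bounds). GPR119, a lipid receptor of islets, had 73.7 and 86.4 CPM in GFP+ sBC and none in DE (at least 914-fold), whereas the incretin receptor GLP1R had 1.15 and 3.12 CPM in GFP+ sBC and none in DE (at least 24.7-fold), and lost its call without DE replicate 2 (adjusted p = 0.0506). SSTR3 had 27.4 and 132 CPM in GFP+ sBC against 21.7 and 17.1 in DE and did not pass (adjusted p = 0.061); without GFP+ sBC replicate 1 it passed, at 2.75. GCGR, the glucagon receptor, had no count in any of the 4 libraries.

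Glucose handling genes were mixed. The glucose transporter SLC2A1 had 198 and 221 CPM in GFP+ sBC against 3.77 and 2.45 in DE (6.11 ± 0.33). SLC2A2, the low-affinity transporter, had 8.07 and 2.04 CPM in GFP+ sBC and none in DE (at least 56.6-fold), and G6PC2, a glucose-6-phosphatase subunit of islets, had 62.7 and 29.1 CPM and none (at least 517-fold). Of 14 tested, 7 were higher and 4 lower, the lower ones being PASK, PFKFB3, SLC2A3 and ME1. SLC2A3 lost its call without DE replicate 1 (adjusted p = 0.0532), which left 2 lower, and ME1 lost it without GFP+ sBC replicate 1 or either DE library (adjusted p 0.0583 to 0.195). Genes that mature beta cells keep off, the disallowed genes, had a median log2 fold change of -0.10 in footprints and -1.34 in RNA; of 12 tested, 4 were higher and 2 lower in footprints, and 2 were higher and 8 lower in RNA. The 4 became 2 without DE replicate 2, without GFP+ sBC replicate 1 or with total footprints of DE. LDHA, lactate dehydrogenase, had 522 and 843 CPM in GFP+ sBC against 645 and 941 in DE, and the groups overlapped (-0.22 ± 0.31). SLC16A1, the monocarboxylate carrier, had 68.1 and 52.2 CPM in GFP+ sBC against 33.7 and 28.4 in DE (0.96 ± 0.27) while its RNA differed by -1.85; the footprint call was lost without DE replicate 2 or either GFP+ sBC library (adjusted p 0.0525 to 0.122). HK2 was lower, with 8.22 and 20.1 CPM in GFP+ sBC against 74.7 and 50.1 in DE. Of 13 proteins that are autoantigens in autoimmune diabetes, 11 were higher and SOX13 lower (median 9.69, or 9.01 with bounds). GAD2, the islet glutamate decarboxylase, had 147 and 128 CPM in GFP+ sBC against 0.236 and 0.0390 in DE (ratio 1560, interval 534 to 7580), and PTPRN, a granule membrane phosphatase homologue, had 95.5 and 152 CPM in GFP+ sBC against 0 and 0.195 in DE (9.69 ± 0.58). SCGN, a calcium sensor of endocrine cells, was the protein-coding gene with the largest change outside the lists, at 2293 and 2284 CPM in GFP+ sBC and none in DE (at least 26055-fold).

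Markers of other cell types were measured in the same libraries. Genes of the serotonin pathway of enterochromaffin-like cells were higher: TPH1, which makes serotonin's precursor, had 407 and 398 CPM in GFP+ sBC against 0.118 and 0 in DE (ratio 13800, interval 2470 to 543000), and DDC, the next enzyme, had 552 and 796 CPM in GFP+ sBC against 0.471 and 0.662 in DE (10.12 ± 0.50). Of 12 such genes tested 10 were higher and TRPA1 lower, with 5.19 and 6.38 CPM in GFP+ sBC against 35.8 and 66.8 in DE. The list summed to 1306 and 1645 CPM in GFP+ sBC and 76.3 and 95.6 CPM in DE. Liver and gut secretory genes were all higher, 14 of 14 tested (median 7.27, or 6.49 with bounds; 3.86 in RNA). SERPINA1, the plasma protease inhibitor that islets also make, had 3645 and 3534 CPM in GFP+ sBC against 0 and 0.0390 in DE (ratio 123000, interval 22000 to 4840000). AFP, fetal liver's albumin relative, had 321 and 268 CPM in GFP+ sBC and none in DE (at least 3344-fold), and ALB had 89.7 and 73.1 CPM and none (at least 924-fold). This list summed to 8396 and 8352 CPM in GFP+ sBC and 478 and 355 CPM in DE. AGT and GC, which encode the plasma proteins angiotensinogen and vitamin D binding protein, were among the largest changes outside the lists, at 998 and 1061 CPM and at 510.3 and 529.7 CPM in GFP+ sBC, both with no count in DE.

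Duct and acinar genes went in both directions. CFTR, the chloride channel of duct cells (chromosome 7, 117480025 to 117668665), had 255 and 392 CPM in GFP+ sBC against 0 and 0.312 in DE, a log2 fold change of 10.46 ± 0.63. Its RNA was at 8.54 and 8.79 CPM in GFP+ sBC and 1.43 and 1.10 in DE, a difference of 2.78, so that the footprint difference was larger by 7.17 (adjusted p = 0.00141, edgeR interaction). The bicarbonate carrier SLC4A4, with 111 and 215 CPM in GFP+ sBC against 0.471 and 0.429 in DE (8.50 ± 0.49), showed a gap of the same sign, 4.56. The duct enzyme CA2, a carbonic anhydrase, was lower, with 9.37 and 9.51 CPM in GFP+ sBC against 129 and 68.4 in DE (-3.38 ± 0.39), as were 2 epithelial keratins. KRT8 had 2222 and 2140.2 CPM in GFP+ sBC against 13856 and 6042 in DE (-2.19 ± 0.41) and KRT18 had 471 and 443 CPM against 1922 and 1203 (-1.77 ± 0.30). KRT19, with 591 and 640.4 CPM in GFP+ sBC against 1373 and 738 in DE, missed the threshold (adjusted p = 0.0811) and passed without DE replicate 2, at -1.17. Of 13 genes tested 8 were higher and 3 lower; CTRB1, PNLIP and AQP1 had at most 2 counts in any library.

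Progenitor, mesenchymal, immune and neuronal markers moved in both directions. Of 13 pancreatic progenitor genes tested 9 were higher and 3 lower. NEUROG3, the factor that starts endocrine differentiation, had 3.17 and 6.25 CPM in GFP+ sBC and none in DE (at least 54.2-fold), and SOX9, a progenitor and duct factor, had 16.6 and 25.8 CPM in GFP+ sBC against 0.589 and 0.156 in DE (6.12 ± 0.60). SOX4 (-1.95) and SOX11 (-1.34) were lower. PTF1A, the acinar and early progenitor factor, had no count in the 4 libraries. Mesenchyme genes summed to 1548 and 1797 CPM in GFP+ sBC and 1492 and 1167 CPM in DE, with 4 of 10 tested higher and 3 lower. The number higher was 2 without either DE library or GFP+ sBC replicate 1, and 6 without GFP+ sBC replicate 2, where the median moved to 1.95, against 0.26. FN1 (fibronectin) carried most of that sum in GFP+ sBC, while TAGLN, an actin-binding protein of smooth muscle, had 11 and 6.52 CPM in GFP+ sBC against 879.9 and 669 in DE (-6.47 ± 0.40). COL1A1 was lower as well (-3.02 ± 0.48). POSTN, with no count in DE, and PDGFRA (2.55) were higher, and the change of PDGFRA was 1.1 without GFP+ sBC replicate 1. COL3A1 went untested, with 23 and 3 counts in GFP+ sBC and 0 in both DE libraries, and LUM, DCN and TWIST1 had at most 3 counts in any library. Endothelial and immune genes summed to 317 and 364 CPM in GFP+ sBC and 12.6 and 9.54 CPM in DE; LYZ (lysozyme) made up most of it in GFP+ sBC, at 282 and 194 CPM against 0.118 and 0.0779 in DE (ratio 2690, interval 921 to 13100), and PTPRC, the defining leukocyte marker, had 0 and 4 counts in GFP+ sBC and 0 and 2 in DE. PECAM1 had 7.93 and 124 CPM in GFP+ sBC against 4.47 and 1.71 in DE and did not pass (adjusted p = 0.067), but passed without GFP+ sBC replicate 1, at 5.39. Of 11 neuronal and glial genes tested 7 were higher and 2 lower. STMN2, a microtubule regulator, was at 107 and 138 CPM in GFP+ sBC against 0.707 and 1.64 in DE (6.57 ± 0.42), and TUBB3 and SOX10 were lower (-2.18 ± 0.25 and -3.31 ± 0.54). The part of such cells in the results above was not tested.

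Most definitive endoderm genes were lower in GFP+ sBC, and the list summed to 314 and 364 CPM there, against 2248 and 2174 CPM in DE. SOX17, the factor that defines this germ layer, had no count in GFP+ sBC and 140.4 and 96.5 CPM in DE, at least 512-fold lower in GFP+ sBC. EOMES, the T-box factor that opens the endoderm programme (chromosome 3, 27715953 to 27722713), had 0.433 and 0 CPM in GFP+ sBC against 145 and 151 in DE, a 713-fold lower level with a counting interval of 244 to 3460. CER1, a secreted Nodal and BMP antagonist, had 1.15 and 1.22 CPM in GFP+ sBC against 441 and 619.5 in DE (-8.79 ± 0.39, adjusted p = 1.89e-05, edgeR). The GFP+ sBC and DE libraries were far apart for all 3. The pancreas retains GATA factors, and they were lower without being absent: GATA4 had 4.47 and 7.06 CPM in GFP+ sBC against 84.1 and 58.2 in DE (-3.62 ± 0.33) and GATA6 had 9.08 and 10.7 CPM against 268 and 182 (-4.50 ± 0.32). FOXA2, a factor of endoderm and its descendants, had 37.6 and 45.4 CPM in GFP+ sBC against 83.5 and 48.7 in DE and missed the threshold (adjusted p = 0.0969), although it passed without DE replicate 2, at -1.02. CXCR4, the surface receptor used to sort endoderm, had 28.5 and 26.2 CPM in GFP+ sBC against 41.6 and 56.9 in DE (-0.85 ± 0.24, adjusted p = 0.0208). That call was lost without DE replicate 2 or either GFP+ sBC library (adjusted p 0.0653 to 0.0956), and the RNA differed by -3.38, which is 2.00 more than the footprints did (adjusted p = 0.00404, edgeR interaction). Of 22 genes tested 17 were lower and 2 higher, FOXA1 and CDH2, each of which lost its call without at least 3 of the 4 libraries in turn. The median was -4.51 in footprints and -6.00 in RNA. TBXT was not tested, with 0 counts in GFP+ sBC and 2 and 11 in DE.

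Pluripotency genes were also lower. NANOG had no count in GFP+ sBC and 3.89 and 2.69 CPM in DE (at least 14.2-fold lower), and POU5F1 (OCT4) had 0 and 0.543 CPM in GFP+ sBC against 82.7 and 55.8 in DE (-7.91 ± 0.69, and -13.18 without GFP+ sBC replicate 2). LIN28A, the RNA-binding protein that blocks let-7 maturation, had 1.44 and 1.77 CPM in GFP+ sBC against 289 and 257 in DE (-7.40 ± 0.29). SOX2, which DE also turns off, had 3.03 and 0.679 CPM in GFP+ sBC against 1.06 and 0.585 in DE and did not pass (adjusted p = 0.146), though it did without GFP+ sBC replicate 2, at 1.83. Of 21 tested 15 were lower and 1 higher, SFRP2, whose call was lost without either DE library or GFP+ sBC replicate 1 (adjusted p 0.0983 to 0.341). The list's median was -4.38, or -2.62 with genes at 0 set to their bound. MIR302CHG, the host of the stem cell miR-302 cluster, had no count in GFP+ sBC and 96.1 and 224 CPM in DE (at least 917-fold lower).

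Nodal, its inhibitors and its nuclear partner were lower, and ACVR1C and ACVR2A, receptors of the activin family, were higher. NODAL itself was at 0 in GFP+ sBC and at 59.0 and 41.1 CPM in DE (at least 217-fold lower), and its inhibitors LEFTY2 and LEFTY1 were at 0.144 and 0 CPM (GFP+ sBC) against 467 and 288 (DE) and at 0.577 and 2.31 CPM (GFP+ sBC) against 305 and 149 (DE). FOXH1, the DNA-binding partner of Nodal's SMADs, was at 0 in GFP+ sBC and at 33.8 and 21.3 CPM in DE. The type I receptor ACVR1C instead had 113 and 98.1 CPM in GFP+ sBC against 0 and 0.117 in DE (ratio 1200, interval 409 to 5820), and ACVR2A was higher too (2.52 ± 0.39). INHBA, the activin A subunit, had 162 and 1936 CPM in GFP+ sBC against 55.1 and 34.7 in DE (adjusted p = 0.0484); its fold rests on 1 library, falling to a log2 of 1.69 without GFP+ sBC replicate 2, and the call was lost without either DE library (adjusted p 0.184 and 0.207). Of the 22 Nodal, BMP and FGF genes 4 were higher (2 without either DE library) and 12 lower (median -2.88). FGFR1, the other higher one, lost its call without GFP+ sBC replicate 2 or either DE library (adjusted p 0.138 to 0.546). FGF17 was at 0 in GFP+ sBC and at 46.5 and 53.5 CPM in DE (at least 247-fold lower). In the WNT pathway 8 of 17 tested were lower and 3 higher (median -1.88). The feedback inhibitor AXIN2 had 4.33 and 4.62 CPM in GFP+ sBC against 21.3 and 20.8 in DE (-2.23 ± 0.27). The ligand WNT5A had 19.3 and 11.5 CPM in GFP+ sBC against 0.118 and 0.117 in DE (6.94 ± 0.55), and APCDD1, a WNT inhibitor, was higher as well (6.03 ± 0.62). FZD7, a WNT receptor, had 3.6 and 5.30 CPM in GFP+ sBC against 10 and 7.33 in DE (adjusted p = 0.0541; -1.42 and past the threshold without GFP+ sBC replicate 2), whereas its RNA difference was -6.32, and the gap of 4.86 passed (adjusted p = 0.00131, edgeR interaction).

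**Figure D3:**
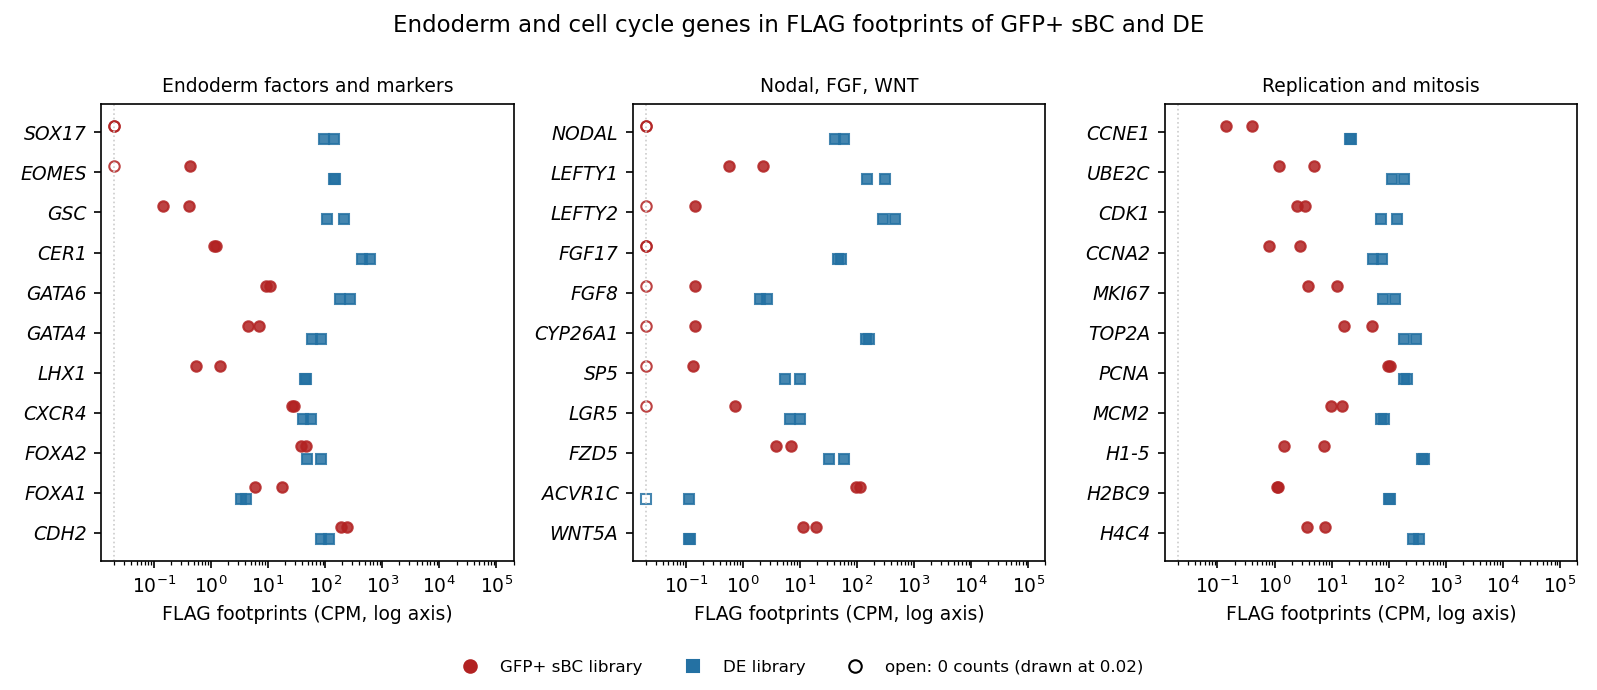
Footprint level (x axis, CPM, log scale) of endoderm genes, of Nodal, FGF and WNT genes, and of replication, mitosis and histone genes in each FLAG library, with GFP+ sBC points above DE points and open points for 0 counts. SOX17 and NODAL have no count in GFP+ sBC and lie at 140.4 and 96.5 CPM and at 59.0 and 41.1 CPM in DE.

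Cell division genes were lower without exception among the 23 tested for DNA replication and mitosis (0 higher, 23 lower; median -3.96). CDK1, the kinase that starts mitosis, had 3.46 and 2.45 CPM in GFP+ sBC against 71.8 and 142 in DE (-5.18 ± 0.43), and CCNE1, the cyclin of S-phase entry, had 0.144 and 0.408 CPM against 21.7 and 20.9 (-6.21 ± 0.41). UBE2C, the ubiquitin carrier of mitotic exit, had 4.90 and 1.22 CPM in GFP+ sBC against 113 and 187 in DE (-5.62 ± 0.63). In each of these genes the groups were well apart. RNA was lower in all 23 (median -5.38), and the footprint drop was smaller than the RNA drop past the threshold in 5, CDK1 and UBE2C among them (gaps of 2.98 and 3.26). Summed, the list took 397 and 265 CPM in GFP+ sBC and 2489 and 3113 CPM in DE. Genes of the cytoskeleton among those with the highest levels went both ways. TUBA1C, an alpha-tubulin, had 99.1 and 89 CPM in GFP+ sBC against 4858 and 4631 in DE (-5.66 ± 0.26), and ACTB had 1262 and 1512 CPM against 9738 and 8030.3 (-2.68 ± 0.27). TUBA1A, another alpha-tubulin, was higher, with 2963 and 3079 CPM in GFP+ sBC against 1918 and 1197 in DE (0.96 ± 0.28, adjusted p = 0.0225, edgeR), but lost its call without DE replicate 2 or either GFP+ sBC library (adjusted p 0.0687 to 0.136).

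Replication histones, made in S phase to package new DNA, were lower in 15 of 17 tested and higher in none (median -4.89). H2BC9 had 1.15 and 1.09 CPM in GFP+ sBC against 106 and 102 in DE (-6.53 ± 0.29), and H1-5 had 7.21 and 1.49 CPM against 376 and 419.9 (-6.52 ± 0.74). H1-1 and H2BC3 had at most 3 counts in any library and did not pass. Histone copies share much sequence, so counts of single members are uncertain, but the list summed to 291 and 181 CPM in GFP+ sBC and 4199 and 3649 CPM in DE. Many H2A and H2B genes carry an octamer, ATTTGCAT, in their shared promoters, and 2 are shown for its place before the start, in capitals, in RefSeq's GRCh38.p14 windows.
H2BC9 chr6:26251555-26251582, plus strand: ttaagcacctATTTGCATaaaagaccta
H2AC8 chr6:26216719-26216746, plus strand (octamer on the other strand): taggcctttcATGCAAATaaagaattca
The octamer occurred in 6 of 18 histone genes with a window (33.3%, against 2.03% of all genes with one). Of the members tested, 5 of 6 with it and 9 of 10 without it were lower, with medians of -5.11 and -4.37.

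The folding machinery of the endoplasmic reticulum had far more footprints in GFP+ sBC. HSPA5 (BiP, the main chaperone of this compartment; chromosome 9, 125234853 to 125241343) had 1917 and 1497 CPM in GFP+ sBC against 153 and 170.3 in DE, a log2 fold change of 3.40 ± 0.34 (adjusted p = 0.000183, edgeR). HYOU1, its exchange factor, had 339 and 366 CPM in GFP+ sBC against 21.8 and 19.6 in DE (4.09 ± 0.25), and ERN1 (IRE1), the stress sensor that splices XBP1, had 10.8 and 13.7 CPM against 0.471 and 0.857 (4.11 ± 0.49). SEL1L and SYVN1, which take misfolded proteins out for degradation, had log2 fold changes of 4.95 ± 0.29 and 5.01 ± 0.37. Of 21 genes 20 were higher (median 3.40), and SDF2L1, with 6.06 and 5.30 CPM in GFP+ sBC against 7.89 and 4.05 in DE, did not pass. RNA was higher in 17 of the 21 with a median of 1.46. In 12 of the 21 the footprint difference exceeded the RNA difference past the threshold, against 7.25% of the 20944 genes in that fit. That fit took in genes with too few footprints for the footprint test, so the background is not matched to these genes by counts. DNAJB9 had a gap of 2.27 and HYOU1 one of 1.95, while HSPA5, at 0.97, just missed (adjusted p = 0.0503). The list took 5656 and 5637 CPM in GFP+ sBC and 520.3 and 607 CPM in DE.

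A known element of such genes is the ER stress response element, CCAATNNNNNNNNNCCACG, and 7 windows that hold it are printed because the same letters recur in chaperone and antigen-loading genes. The windows are RefSeq's on GRCh38.p14, searched on both strands before the start, and capitals mark the element.
HSPA5 chr9:125241381-125241419, minus strand: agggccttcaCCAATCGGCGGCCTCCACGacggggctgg
HSP90B1 chr12:103930206-103930244, plus strand: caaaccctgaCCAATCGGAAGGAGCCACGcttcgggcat
PDIA6 chr2:10812843-10812881, minus strand: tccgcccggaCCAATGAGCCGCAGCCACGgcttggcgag
XBP1 chr22:28800593-28800631, minus strand: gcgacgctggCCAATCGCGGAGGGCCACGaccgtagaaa
CRELD2 chr22:49918544-49918582, plus strand (element on the other strand): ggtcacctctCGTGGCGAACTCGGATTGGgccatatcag
CALR chr19:12938374-12938412, plus strand (element on the other strand): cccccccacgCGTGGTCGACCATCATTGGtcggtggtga
CANX chr5:179698768-179698806, plus strand: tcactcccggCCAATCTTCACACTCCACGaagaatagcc
The element occurred in 5 of the 21 folding genes (23.8%, against 0.0916% of 27305 genes with a window). It occurred in 2 of 20 antigen presentation genes with a window (10%) and in 0 of 17 translocation genes. Folding genes with it had a median log2 fold change of 2.84 and those without it one of 3.57. HSP90B1, a chaperone, had 1537 and 1828 CPM in GFP+ sBC against 90.7 and 132 in DE, and XBP1, the factor that IRE1 activates, had 137 and 163 CPM in GFP+ sBC against 49.3 and 54.0 in DE.

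The gate through which proteins enter this compartment changed less evenly. SEC61A1, its channel, had 224 and 248 CPM in GFP+ sBC against 18.1 and 15.7 in DE (3.80 ± 0.25), and SEC11C, a signal peptidase subunit, had 182 and 182 CPM against 8.83 and 10.5 (4.23 ± 0.24). SEC61B, another channel subunit, had 190.0 and 173 CPM in GFP+ sBC against 175 and 107 in DE and did not pass (adjusted p = 0.278), though it did without DE replicate 1, at 0.69. SRP72, part of the particle that finds signal peptides, had 107 and 111 CPM in GFP+ sBC against 134 and 149 in DE (-0.37 ± 0.22, adjusted p = 0.183). Its partner SRP14 was the 1 lower gene (-0.66 ± 0.22) and lost its call without DE replicate 2 or either GFP+ sBC library (adjusted p 0.0789 to 0.115). Of 20 genes 15 were higher, with a median of 2.02 in footprints and 0.33 in RNA, where 8 were higher and 5 lower.

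Antigen presentation genes were higher in 20 of 25 tested and lower in none (median 4.09; 2.05 in RNA). HLA-B, a class I heavy chain (chromosome 6, 31353875 to 31357179), had 733 and 665 CPM in GFP+ sBC against 20.6 and 17.6 in DE (5.20 ± 0.25, adjusted p = 1.89e-05, edgeR). Its RNA stood at 131 and 91.5 CPM in GFP+ sBC and 48.9 and 50.2 in DE, a difference of 1.17, and the gap of 3.50 passed (adjusted p = 0.00141). HLA-C had 155 and 151 CPM in GFP+ sBC against 13.4 and 31.8 in DE (2.74 ± 0.40). Class I genes are near copies of each other, so how reads were split among them is uncertain. B2M, their common light chain, had 844 and 649 CPM in GFP+ sBC against 5.65 and 13.5 in DE (6.25 ± 0.50). ERAP1, which trims peptides for loading, had 128 and 142 CPM in GFP+ sBC against 0.353 and 0.935 in DE (7.51 ± 0.46). Of the immunoproteasome activators, PSME1 had 174 and 195 CPM in GFP+ sBC against 133 and 164 in DE and PSME2 had 131 and 116 CPM against 106 and 112, and neither passed. CD74, the class II chaperone, was higher (7.02 ± 0.57), while HLA-DRA and CIITA had at most 3 counts in any library. UBD, an interferon-inducible ubiquitin-like protein outside the lists, had 266 and 522 CPM in GFP+ sBC and none in DE (at least 4527-fold higher).

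Most basement membrane genes had a larger footprint difference than RNA difference. LAMA1, a laminin chain, had 174 and 309 CPM of footprints in GFP+ sBC against 10.2 and 9.94 in DE (4.58 ± 0.44), while its RNA stood at 56.9 and 43 CPM in GFP+ sBC and 115 and 106 in DE (-1.15). The gap of 5.21 passed (adjusted p = 0.00131, edgeR interaction). LAMC1, the gamma chain shared by most laminins (chromosome 1, 183023420 to 183145592), had 361 and 525 CPM in GFP+ sBC against 4.0 and 3.39 in DE (6.92 ± 0.37), with RNA higher by 3.61. COL4A1, a collagen IV chain, had 18.3 and 44.3 CPM in GFP+ sBC against 34.1 and 26.2 in DE, so the groups overlapped (0.06 ± 0.41), but its RNA difference was -4.33. FN1 (chromosome 2, 215360865 to 215436068) had 1197 and 1497 CPM of footprints in GFP+ sBC against 91.3 and 77.8 in DE (3.99 ± 0.29) and RNA of 381 and 301 CPM in GFP+ sBC against 628 and 530.1 in DE (-0.76), a gap of 4.23 (adjusted p = 0.00112). SPARC, a collagen-binding matrix protein, had 70.2 and 96.0 CPM of footprints in GFP+ sBC against 178 and 144 in DE (-0.95 ± 0.24; the call was lost without GFP+ sBC replicate 1, adjusted p = 0.0868), and an RNA difference of -5.82. Of 14 basement membrane genes 13 were higher in footprints (median 3.93), whereas in RNA 5 were higher and 4 lower (median -0.11), and the gap passed in 13 of 14 (median 3.27). With total footprints of DE in place of its FLAG footprints, the list again had 13 of 14 higher (median 3.57). The 2 libraries of DE total footprints were unlike each other, with 40.5% and 76.0% of their counts in nuclear protein-coding genes. The RNA and footprint libraries of GFP+ sBC come from cells with different labels for the lentivirus, and the part of that difference in these gaps cannot be told apart from translation.

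**Figure D4:**
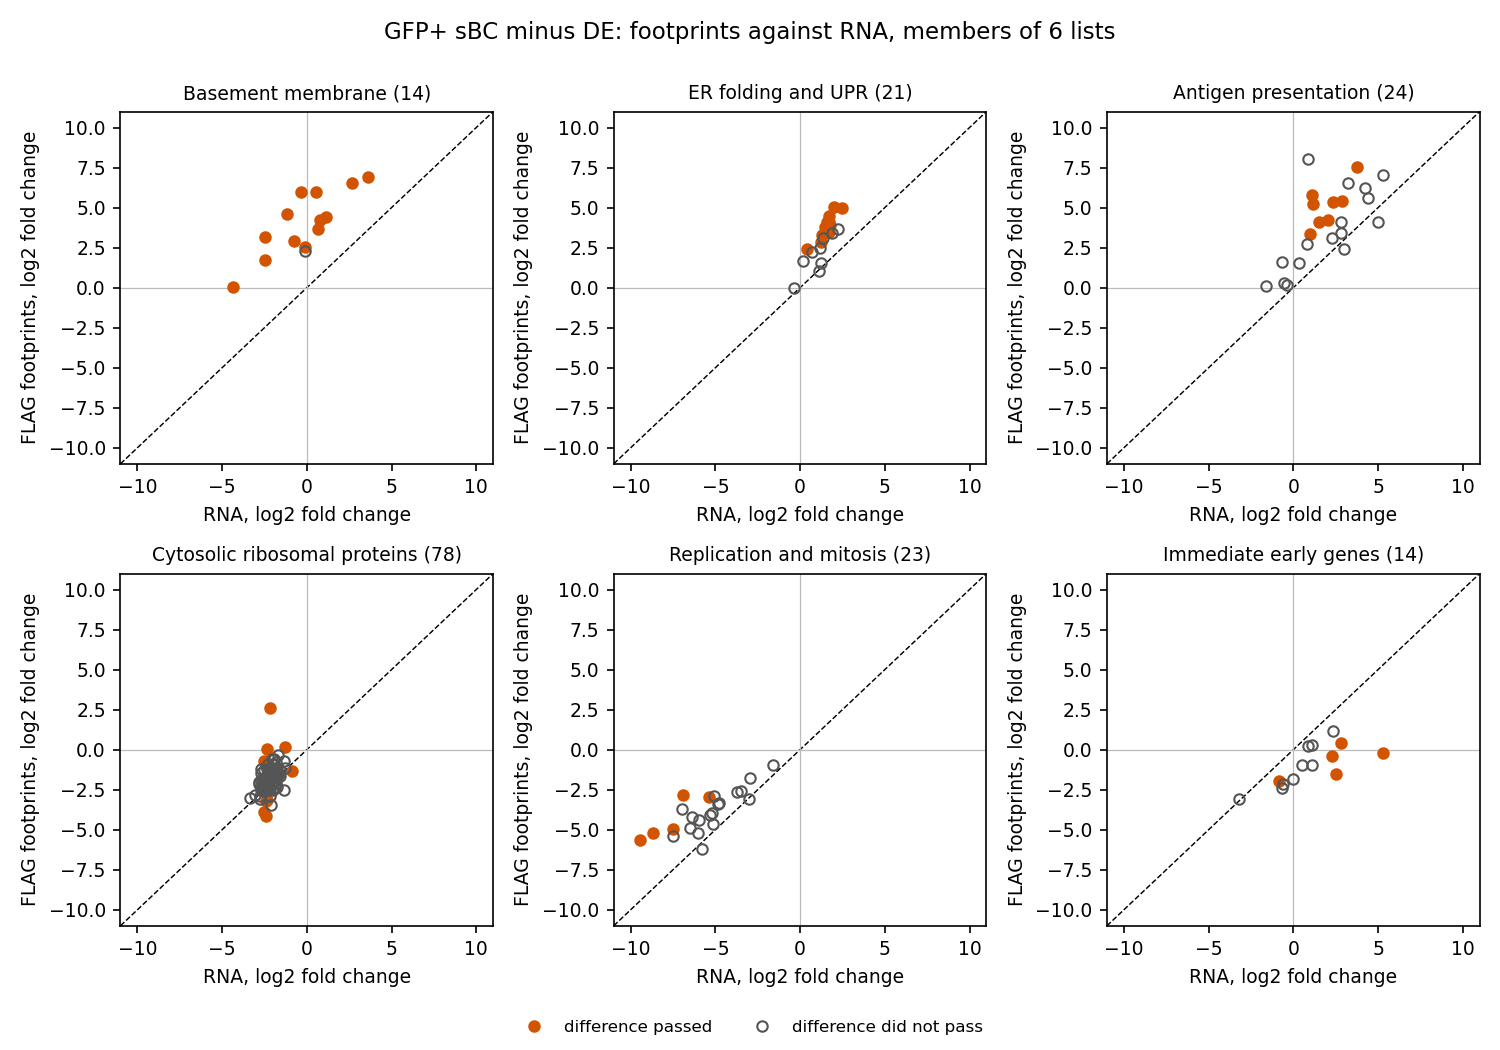
Footprint log2 fold change (y axis) against RNA log2 fold change (x axis) of GFP+ sBC over DE for the members of 6 gene lists, with filled points where the difference between both passed the threshold. Basement membrane genes lie above the diagonal, with medians of 3.93 in footprints and -0.11 in RNA, and ribosomal protein genes lie near it, at -1.73 and -2.13.

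Ribosomal protein genes were lower in 68 of 78 (median -1.73; RNA lower in all 78, median -2.13). RPL29 had 39.8 and 26.6 CPM in GFP+ sBC against 687 and 474 in DE (-4.13 ± 0.44), and RPS25 had 95.7 and 67.5 CPM against 1524 and 892 (-3.89 ± 0.36). RPS24, with 2142 and 1991 CPM in GFP+ sBC against 3085 and 2206 in DE, did not pass (-0.36 ± 0.25). Genes of this family often hold snoRNA genes in their introns, and snoRNA genes took 6.26% and 3.79% of the GFP+ sBC counts, against 1.38% and 1.41% in DE. Over the family the shift was about the same in genes that hold a snoRNA (24 of 29 lower, median -1.67) and in those that hold none (44 of 49, median -1.80). RPL22, the tagged protein, is not on the list; it had 3731 and 1960.0 CPM in GFP+ sBC against 927 and 1265 in DE (1.38 ± 0.34, adjusted p = 0.0123), and the call was lost without DE replicate 1 or GFP+ sBC replicate 1 (adjusted p 0.0778 and 0.0864). Transgene and endogenous reads of RPL22 cannot be told apart here.

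Messages of this family begin with a run of pyrimidines that growth signals act on, and 4 starts are shown, 3 of genes that were lower and 1, RPS12, that did not pass. Each runs from 15 bases before the RefSeq start on GRCh38.p14, and capitals mark the run.
RPL29 chr3:51995881-51995910, minus strand: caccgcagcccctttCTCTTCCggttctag
RPS25 chr11:119018329-119018358, minus strand: tctgagcagcgcttcCTTTTTgtccgacat
RPL35 chr9:124861943-124861972, minus strand: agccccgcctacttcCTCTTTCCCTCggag
RPS12 chr6:132814554-132814583, plus strand: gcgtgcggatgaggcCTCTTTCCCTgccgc
The run (a C and 4 more pyrimidines at the start) occurred in 45 of 62 ribosomal protein genes with a window (72.6%, against 5.14% of all genes with one). Genes with it were lower in 38 of 45 (median -1.73) and those without it in 16 of 17 (median -1.89). RPS12 had 325 and 351 CPM in GFP+ sBC against 263 and 379 in DE, and its RNA difference was -2.37.

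The rest of the translation apparatus shifted less. Of 24 translation factors 13 were lower and 1 higher (median -0.72; -1.43 in RNA). EIF4EBP1, the repressor of cap binding, had 1.87 and 1.49 CPM in GFP+ sBC against 60.5 and 69.6 in DE (-5.27 ± 0.30), a drop larger than that of its RNA by 2.02 (gap -2.02, adjusted p = 0.0104, edgeR interaction). EEF1A1, the main elongation factor, had 7483 and 7641 CPM in GFP+ sBC against 10408 and 12364 in DE and missed the threshold (adjusted p = 0.08), though it passed without DE replicate 1, at -0.78. EIF4A2, a helicase, was higher (1.17 ± 0.27) and lost its call without GFP+ sBC replicate 1 (adjusted p = 0.068); with total footprints of DE in place of FLAG footprints its direction turned (-0.99). Among 20 aminoacyl-tRNA synthetases 7 were lower, WARS1 the most (-2.69 ± 0.22). WARS1 had 37.1 and 31.1 CPM in GFP+ sBC against 228 and 210.2 in DE. EPRS1 was higher (1.70 ± 0.24). Leaving out small RNA genes and genes that hold a snoRNA kept 16 of the 24 translation factors and 18 of the 20 synthetases. Of those kept, 0 were higher in either list, which does not retest the members taken out. The stress factor ATF4 had 30.0 and 29.3 CPM in GFP+ sBC against 208 and 220.3 in DE (-2.85 ± 0.21), a drop beyond that of its RNA (gap -1.39, adjusted p = 0.00989). Genes known as its targets were lower too: ASNS, asparagine synthetase, was at -2.26 ± 0.24, PSAT1, of serine synthesis, at -4.26 ± 0.30, and CHAC1 at -4.16 ± 0.47. Of the 16 genes of that list 7 were lower and 2 higher, VLDLR (5.67 ± 0.31) and EPRS1. The fit without small RNA genes and genes that hold a snoRNA kept 15 of the 16, of which 1 was higher. The member taken out was not retested. Of 8 polyamine genes 6 were lower, with ODC1, the first enzyme, at 22.1 and 25.7 CPM in GFP+ sBC against 119 and 86.8 in DE (-2.11 ± 0.27), and SAT1, which breaks polyamines down, was higher (1.06 ± 0.26) but lost its call without DE replicate 1 or GFP+ sBC replicate 2 (adjusted p 0.0594 and 0.129).

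Immediate early genes parted from their RNA. Of 14 tested, 6 were lower and 0 higher in footprints (median -0.95), whereas 8 of 16 were higher and 1 lower in RNA (median 1.11). With total footprints of DE in place of its FLAG footprints, 5 of 14 were lower and 2 higher (median -0.30). KLF6 had 5.62 and 5.98 CPM in GFP+ sBC against 31.9 and 28.1 in DE (-2.37 ± 0.26), and IER2 had 3.32 and 4.08 CPM against 21.2 and 11.9 (-2.15 ± 0.36), while neither passed in RNA. The gap between both assays passed in 5 genes, all with footprints below RNA: DUSP1, EGR1, FOS, JUNB and JUND. FOS, named for its RNA after its values were seen, had 2.60 and 1.49 CPM of footprints in GFP+ sBC against 3.65 and 1.25 in DE, and RNA higher by 5.29. The heat shock genes HSPA1A and HSPA1B did not pass in footprints (0.29 ± 0.28 and 0.24 ± 0.20).

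The 25 nuclear-encoded respiratory chain genes had a median of 0.02, with 4 higher and 4 lower; 2 were higher without GFP+ sBC replicate 1, and 8 with total footprints of DE. SDHA, a complex II subunit, had 182 and 199 CPM in GFP+ sBC against 78.5 and 69.9 in DE (1.36 ± 0.21), and COX7C had 169 and 178 CPM against 634 and 546 (-1.77 ± 0.21). ATP5F1A, an ATP synthase subunit, had 1520.2 and 1503 CPM in GFP+ sBC against 1921 and 1418 in DE, and the groups overlapped. Mitochondrially encoded messages are read by the organelle's own ribosomes, which do not contain RPL22, and had few counts: MT-CO1 had 25.4 and 15.2 CPM in GFP+ sBC against 6.01 and 5.61 in DE (1.81 ± 0.38), a direction that turned with total footprints of DE (-2.07). Of 11 tested 4 were higher (median 1.31), and 2 of these, MT-CO2 and MT-CO3, lost their calls without either DE library or GFP+ sBC replicate 1 (adjusted p 0.0509 to 0.234). With total footprints of DE 0 of 13 were higher and 9 lower (median -1.71).

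Several imprinted growth genes were higher. IGF2, a growth factor that beta cells make, had 133 and 235 CPM in GFP+ sBC against 1.18 and 0.351 in DE (8.17 ± 0.85). DLK1, a Notch-like ligand of the same class, had 268 and 440.0 CPM in GFP+ sBC against 1.77 and 1.64 in DE (7.70 ± 0.37), with RNA higher by 3.87 and a gap of 3.32 (adjusted p = 0.00313, edgeR interaction). RTL1, from the DLK1 locus, had 36.3 and 51.1 CPM in GFP+ sBC against 0.118 and 0.546 in DE (6.72 ± 0.51). GRB10 was lower (-2.13 ± 0.33). Of 13 tested 6 were higher and 2 lower. Among transcripts without a coding role, NEAT1 had 15 and 8.97 CPM in GFP+ sBC against 0.707 and 0.351 in DE (4.61 ± 0.69) and the stem cell RNA ESRG had 1.15 and 0.951 CPM against 19.3 and 17.7 (-4.13 ± 0.29). The snoRNA host GAS5 had 1488 and 538 CPM in GFP+ sBC against 254 and 236 in DE (2.05 ± 0.46) with an RNA difference of -2.40; the call was lost without either DE library (adjusted p 0.0782 and 0.0863), the change was 1.11 without GFP+ sBC replicate 1, and its direction turned with total footprints of DE (-0.69). Opposite signs in footprints and RNA were also met in TAL1, a blood transcription factor, and in SAMD3. TAL1 had 18.7 and 5.03 CPM of footprints in GFP+ sBC against 0.236 and 0.117 in DE (6.19 ± 0.85). Its RNA was at 0 CPM in both GFP+ sBC libraries and at 1.01 and 0.576 CPM in DE. The fitted RNA difference of -8.45 thus rests on a group at 0 and is no measured ratio. SAMD3 had 2.60 and 3.53 CPM of footprints in GFP+ sBC against 9.42 and 12.9 in DE (-1.86 ± 0.36). Its RNA difference was 1.55.

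**Figure D5:**
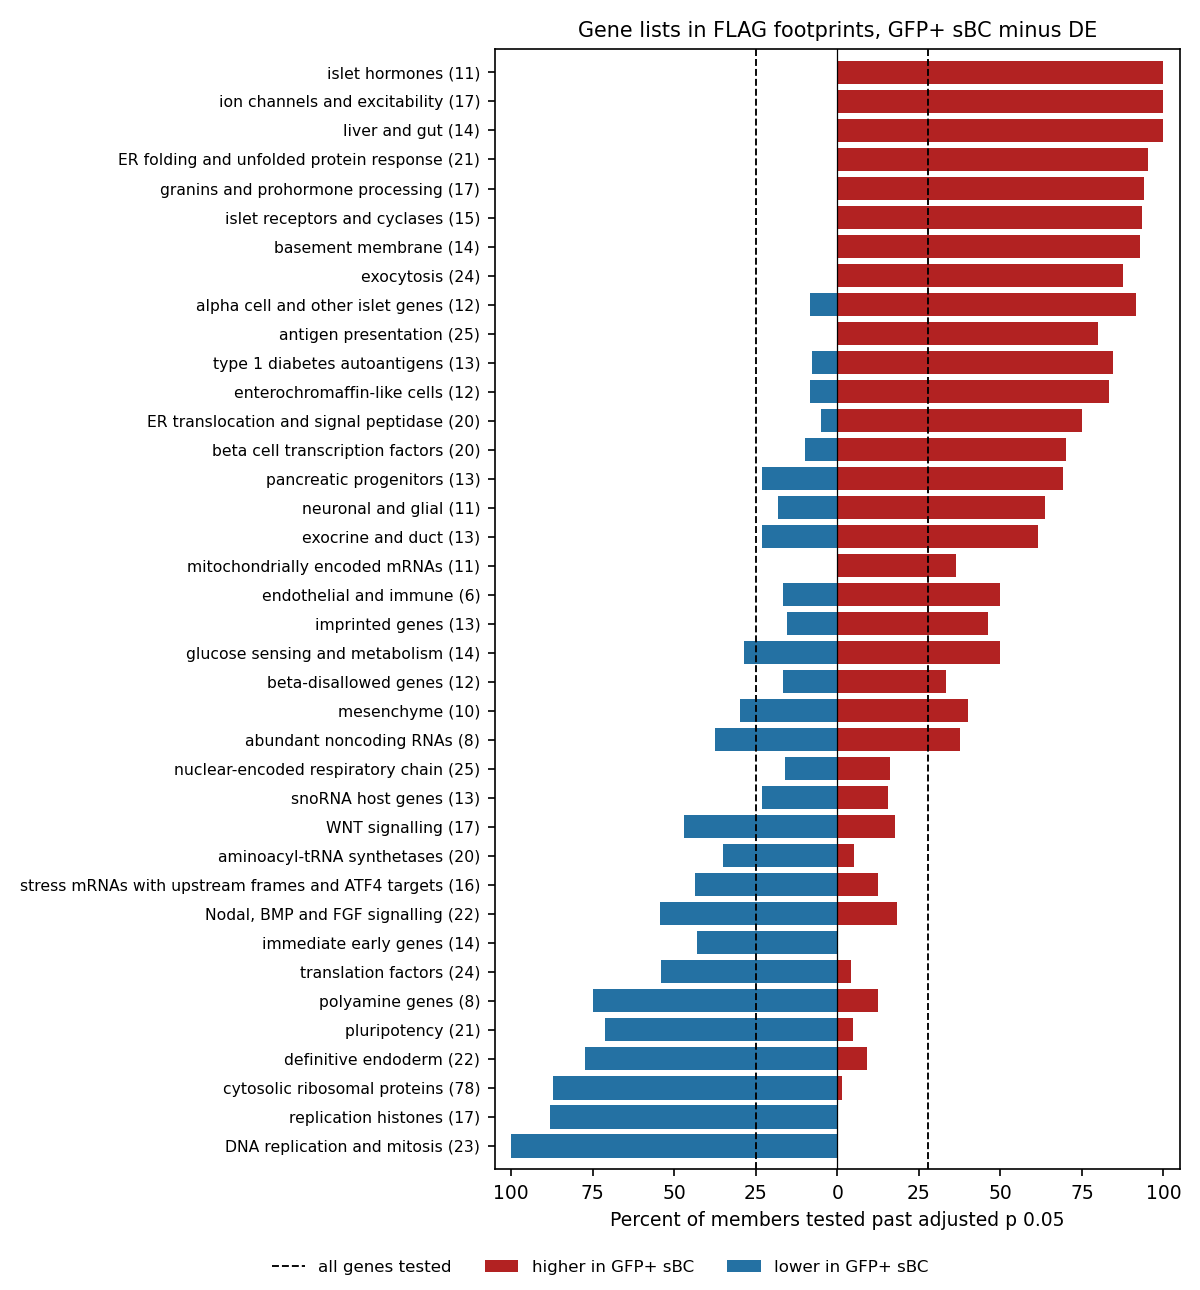
Percent of the tested members of each gene list whose footprints were higher (bars to the right) or lower (bars to the left) in GFP+ sBC than in DE, with dashed lines at the shares over all genes tested, 27.8% and 24.8%. Hormone, channel and liver and gut lists reach 100% higher, and replication and mitosis reaches 100% lower.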

How the data were processed

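FLAG-immunoprecipitated ribosome footprints and RNA-seq of the GFP+ sBC and DE stages were taken from 1 deposited table of 57808 genes, whose values are the authors' expected counts: estimated, not whole in 16.8% to 31.3% of the values, and not normalised. Per the submitters' processing notes, Salmon, DESeq2, UMI-tools, cutadapt, Bowtie and GRCh38 were used, with no version or role given. The annotation release and the strand setting are not given in the sources used here, so overlapping and antisense genes are uncertain, and reads shared by near copies may be split among them. Gene symbols came from a table that matched 57030 of the IDs.

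Counts were rounded to whole numbers and tested with edgeR 4.0.16 (filterByExpr, TMM scaling, robust quasi-likelihood fit; R 4.3.3) with Benjamini-Hochberg adjustment over all genes tested and a threshold of 0.05. The footprint fit held the 6 FLAG libraries of GFP+ sBC, undifferentiated stem cells and DE, which share 1 estimate of the spread with 3 residual degrees of freedom. RNA was fitted with 8 libraries, and the gap between footprint and RNA differences with an interaction over 8 libraries. The procedure was checked on simulated data. It called 8 of 15177 genes simulated without a change. Of genes simulated with a change it called 4 of 100 at a log2 size of 1 and 61 of 100 at 2. These were the only changed genes among 15377, whereas 52.6% of genes were called in the data. Benjamini-Hochberg adjustment is stricter where few genes change, so these shares do not measure how often such changes are found here. Genes that did not pass may still differ. Where a group had no count, a bound was set against a floor of 3 counts over its 2 libraries, and where it had 1 to 3 counts the ratio is given with a 95% exact counting interval, which covers counting error only. Promoter windows were RefSeq's, searched with Python 3.11.15. Alternatives were DESeq2 1.42.0, other filters and scalings, leaving out each library, subsets of genes, and total footprints of DE in place of its FLAG footprints. The 2 libraries of DE total footprints differed in make-up. Nuclear protein-coding genes took 40.5% of replicate 1 and 76.0% of replicate 2, and long noncoding RNA genes took 18.4% and 2.33%. The top 10 genes took 61.9% and 16.0%.

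The lists and their members were chosen with earlier results of these data known, so their counts are descriptions. Named genes are, in each direction, the 12 protein-coding genes with the largest change whose groups do not overlap and whose log2 CPM averages 3 or more, 4 noncoding ones by the same criteria, the 10 protein-coding ones with the highest level, up to 5 called members of each list in each direction and up to 2 not called, key islet, endoderm and stem cell genes, and up to 5 protein-coding genes in each direction whose footprint and RNA differences both passed with opposite signs. Members named because they went untested or to complete a count, those shown for a sequence, and FOS, DUSP1, EGR1 and JUNB fall outside that rule and were chosen after their values were seen. Replicate numbers did not pair the libraries: the deviations of same-numbered libraries correlated at -0.02 between GFP+ sBC and DE. A planned comparison of footprint density along coding length was not run, since no protein or transcript lengths were used here. Some members of the lists are counted but not reported by name here.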

Additional observations from a re-analysis of the deposited data

How the results depend on the processing

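Testing against a log2 fold change of 1 left 5552 genes called, 3384 higher and 2168 lower. Leaving out 1 of the 4 libraries gave between 6757 and 7316 calls. The other alternatives gave 7507 (the 4 libraries fitted alone) to 9400 (DE total footprints) calls, within 1.5 times of 8418, and DESeq2 gave 8572. DESeq2 called 3710 gaps between footprint and RNA differences, against 2163 in edgeR. With a replicate block the calls were 7532 for footprints, 13591 for RNA and 1837 for the gap; the numbers share no more than a label (correlation -0.02, and -0.01 and -0.14 for the pairs with undifferentiated cells), and of the named genes 17 lost and 2 gained a call under the block. RNA calls lay between 9609 and 11021 without 1 RNA library. With DE total footprints, MSANTD3-TMEFF1 (-1.06), EIF4A2 (-0.99), MT-ND6 (-2.37), MT-CO3 (-2.20), MT-CO1 (-2.07), MT-CO2 (-1.89), MT-ND5 (-1.46), GAS5 (-0.69) and MALAT1 (-0.04) changed sign, and the cause was not tested; no other alternative changed the sign of a named gene. The 2 libraries of DE total footprints differed in make-up, as given above, and the part of this in that fit was not tested. Depth limits the genes at or near 0 in 1 group, whose ratios rest on a few counts.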
